A study of Gallus gallus with 27 samples.

Results

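E2-only cells are cells sorted from the vagal region of chick embryos as negative for the NC2 reporter and positive for the E2 reporter, and their open chromatin was compared between HH18 and HH25, which are stages of chick development in the series of Hamburger and Hamilton. The 6 E2-only libraries, 3 at each stage, are the members of this comparison among 27 samples in 9 groups of 3. Of the 140062 genomic intervals in the count table, 134020 had enough reads to be tested. All samples came from wild-type chick embryos. The embryos of the HH18 and HH25 samples had been electroporated with NC2:citrine and E2:citrine constructs at HH8 to HH9. The reporter-negative controls of these stages thus came from embryos with the same treatment. Double-positive cells (NC2-positive, E2-positive) and double-negative cells (NC2-negative, E2-negative) of the same stages, 3 libraries each, are used for reference. Both constructs are labelled as citrine, with no word on how the sort distinguished them, so the identity of each sorted group rests on the labels. The labels do not say whether embryos were pooled or how many contributed to a library.

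The vagal neural crest is a migratory embryonic cell population that leaves the dorsal neural tube. It is known for giving rise to most of the enteric nervous system and for contributing to the heart outflow tract, glia, pigment cells and mesenchyme. NC2 and E2 are known from background as enhancers of the neural crest transcription factor genes FOXD3 and SOX10. In ATAC-seq a transposase cuts accessible DNA and attaches sequencing adapters to it, so an interval that gains reads became more accessible in the sorted population. In a sorted population a change in accessibility within cells and a change in which cells carry the reporter cannot be told apart from such counts.

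Read totals over the intervals were 6976050, 2586375 and 5228963 in the HH18 E2-only libraries and 4265286, 4559073 and 4012324 in the HH25 E2-only libraries. The totals of all 18 libraries used ran from 992341, in an HH18 negative library, to 6976050. The lowest deposited count was 1 in every library, so a value of 1 may stand for no read. Values below are CPM, counts scaled to a common library total, where 1 read corresponded to 0.158 to 0.431 CPM at HH18 and to 0.199 to 0.223 CPM at HH25 in E2-only libraries. The labelled cell types could not be checked against marker genes, because no annotation of the genome build of the files was used, and intervals are therefore named by their galGal5 position alone.

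The HH18 E2-only libraries stood far apart from the HH25 E2-only libraries. Across the tested intervals, which are not independent replicates, Spearman's rho between an HH18 and an HH25 E2-only library was 0.27 to 0.31 over the 9 pairs. Libraries of the same stage were alike, with rho of 0.87 to 0.92 within HH18 and 0.83 to 0.85 within HH25. For comparison, rho across the same stages was 0.53 to 0.55 in double-positive cells and 0.52 to 0.59 in negative cells. Thinning every library to about the lowest total (992341 reads) left the order in place, with 0.25 to 0.28 in E2-only, 0.48 to 0.49 in double-positive and 0.48 to 0.51 in negative cells.

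The position of the E2-only libraries among the other populations also moved with stage. At HH25 they resembled both other populations of that stage, with rho of 0.71 to 0.76 against negative and 0.69 to 0.72 against double-positive libraries. At HH18 the corresponding values were 0.50 to 0.60 and 0.53 to 0.58. The lowest values of any HH25 E2-only library were those against HH18 E2-only libraries, below the 0.36 to 0.40 against HH18 double-positive and the 0.43 to 0.50 against HH18 negative libraries. In each HH25 E2-only library the farthest of all other libraries was HH18 E2-only replicate 3, at 0.27 to 0.29. The HH18 E2-only libraries were as far from the other HH25 populations, at 0.23 to 0.30 against negative and 0.27 to 0.31 against double-positive libraries.

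**Figure D1:**
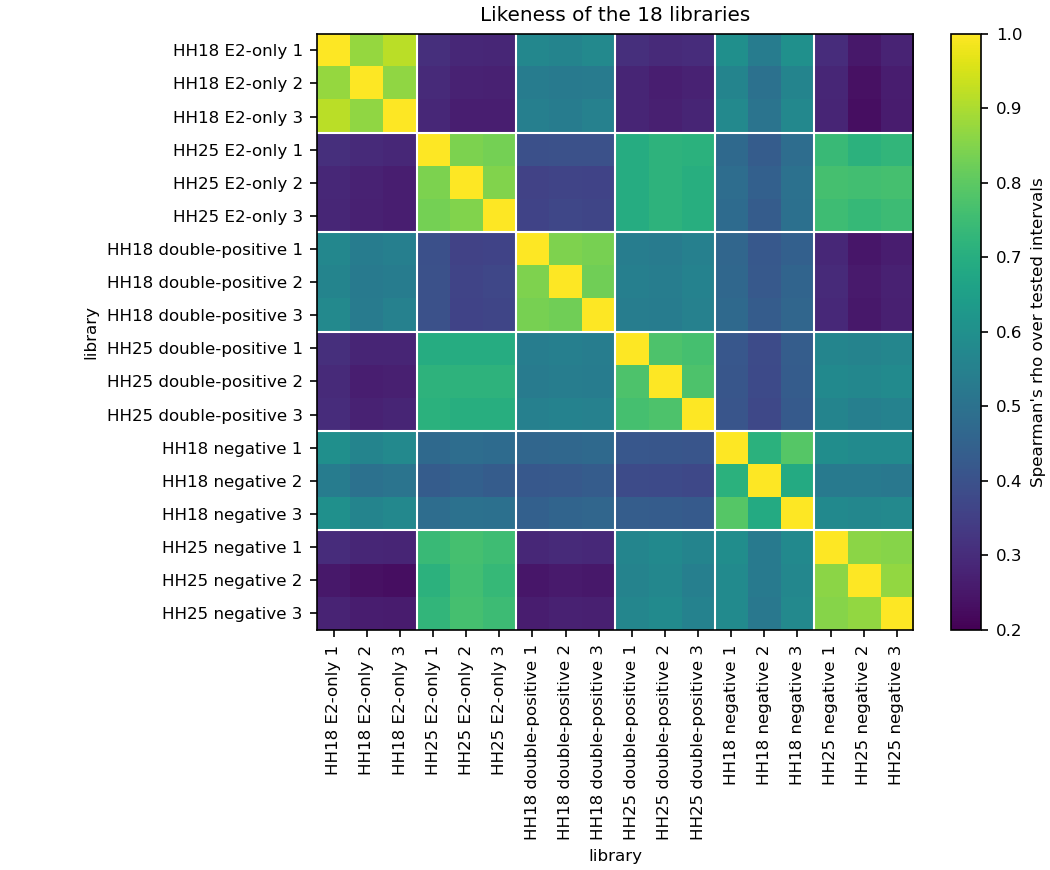
Spearman's rho of counts over 134020 tested intervals between each pair of the 18 libraries, with groups separated by white lines and colour giving rho from 0.2 to 1. The block of HH18 E2-only against HH25 E2-only libraries lies at 0.27 to 0.31, below the same-population blocks of double-positive cells (0.53 to 0.55) and negative cells (0.52 to 0.59).

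More than 1 in 2 of the tested intervals changed accessibility between the stages in E2-only cells. At HH25, 36939 intervals were higher, 27.6% of those tested, and 39175 were lower, 29.2%, so that 56.8% were called in all (edgeR quasi-likelihood test, Benjamini-Hochberg adjusted p below 0.05). Higher intervals made up 48.5% of the calls. The median change was 1.84 on the log2 scale among the higher and -1.67 among the lower intervals. The 3 libraries of one stage did not overlap the 3 of the other at 33436 of the higher intervals (90.5%) and at 36201 of the lower (92.4%). Over all tested intervals the stages were separated in this way at 28.6% with HH25 higher and at 30.2% with HH25 lower.

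The division into higher and lower intervals depended on the scaling of the libraries. Scaling by library totals alone moved the median change of all tested intervals from 0.00 to 0.32 on the log2 scale and gave 47990 higher and 30277 lower intervals, so that 61.3% of calls were higher. The scaling factors of the main fit were 0.87 to 0.906 at HH18 and 1.10 to 1.13 at HH25 in E2-only cells. Directions in the following text are therefore relative to the median interval.

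Intervals that rose went from low to middling accessibility, and intervals that fell started from higher levels. The median level of the higher intervals was 1.5 CPM at HH18 and 6.26 CPM at HH25. The lower intervals had a median level of 10.9 CPM at HH18 and 2.86 CPM at HH25. Among all tested intervals the median was 4.27 CPM at HH18 and 4.29 CPM at HH25. The sets were chosen by calls on the same counts, so the direction of their medians follows from that choice. The calls of the other populations had similar levels. Higher intervals went from 1.91 to 7.2 CPM in double-positive and from 2.13 to 7.27 CPM in negative cells. Lower intervals went from 12.8 to 4.43 CPM and from 7.82 to 2.39 CPM.

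When the tested intervals were divided into 5 equal groups by their mean level, the balance of directions turned over. In the group with the lowest levels (1 to 2.87 CPM), 27.5% of 26804 intervals rose and 23.6% fell. In the middle group (3.94 to 5.61 CPM) 31.3% rose and 27% fell. In the group with the highest levels (above 9.43 CPM) 19.6% rose and 39% fell, with a median change of -0.25. The share called differed little, from 51.1% in the lowest group to 60.5% in the fourth, whereas in double-positive cells it climbed from 20.1% to 50.3% between the lowest and the highest group.

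The changes were large. A fitted change of at least 2-fold was reached by 32996 of the higher and 32180 of the lower intervals, and one of at least 8-fold by 5746 and 5339. Changes of at least 16-fold were found at 1223 higher and 1265 lower intervals. When tested against a 2-fold change in place of no change, 19982 intervals were higher and 20692 lower.

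The other 2 populations changed less over the same stages. Double-positive cells had 21906 higher (16.3%) and 24619 lower intervals (18.4%), 34.7% in all. Negative cells had 16213 higher (12.1%) and 15833 lower intervals (11.8%), 23.9% in all. Changes of at least 8-fold numbered 1478 higher and 711 lower in double-positive and 799 and 528 in negative cells. The SD of the log2 changes over tested intervals was 1.66 in E2-only, 1.18 in double-positive and 1.04 in negative cells. The negative libraries included the shallowest, at 992341 reads, and double-positive totals ran from 2609023 to 3781843. Counts start at 1, so the fold that an interval can reach depends on depth. The part of depth in these numbers of calls, fold sizes and SDs was not tested.

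**Figure D2:**
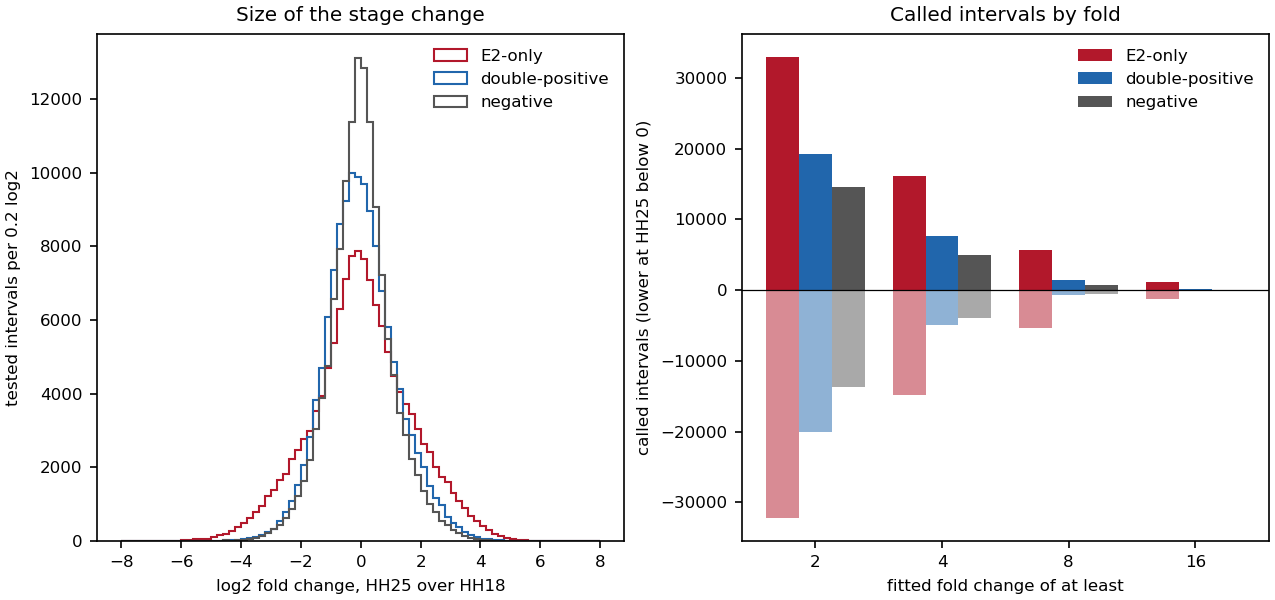
Left, the number of tested intervals per 0.2 log2 unit of stage change (HH25 over HH18) in each population. Right, called intervals that reach a fitted change of at least 2-, 4-, 8- or 16-fold, with lower intervals drawn below 0 in the paler shade; E2-only cells had 5746 higher and 5339 lower intervals at 8-fold or more.

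Library-wide measures moved with stage as well. The strongest 1% of intervals held 10.1% ± 0.368 (SD, n = 3) of the reads in HH18 and 9.18% ± 0.183 (n = 3) in HH25 E2-only libraries, and the groups did not overlap (exact two-sided permutation p = 0.1, the smallest that 3 against 3 libraries can give). After thinning to a common total, 13.5% ± 1.29 of intervals at HH18 and 7.05% ± 0.776 at HH25 had a count of 0 (n = 3 each, exact permutation p = 0.1). Deposited counts start at 1, so a 0 arose only by thinning, and this share depends on the depth before thinning. In the shallowest library, HH18 negative replicate 2, it was 0%, though 23.8% of intervals were at the lowest count. It is therefore not the share of intervals without reads. The number of intervals with a count of 2 divided by those with 3 was 1.16 to 1.44 at HH18 and 0.822 to 0.883 at HH25. The part of these differences in the calls was not tested.

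Some intervals opened from the lowest count. Every HH18 E2-only library was at the lowest count of 1 at 571 intervals of the table, of which 429 had enough reads to be tested. They could reach the test only through reads in other libraries. Of the 429, 406 were higher at HH25. In the opposite direction, 58 intervals of the table were at the lowest count in every HH25 E2-only library. Of these, 29 were tested, and 26 of the 29 were lower at HH25. Both sets were chosen by their level at 1 stage and by having reads elsewhere, so their direction is fixed by that choice. Their median level at the other stage was 4.92 CPM for the 429 and 6.87 CPM for the 29. Among the 429, all 3 HH18 double-positive libraries were also at 1 at 37 intervals and all 3 HH18 negative libraries at 33.

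The interval that opened to the highest level from the lowest count was chr3:84030966-84031166. It held 1 read in each HH18 E2-only library and 132, 134 and 113 reads at HH25, which are 27.3, 26.7 and 25.2 CPM. The HH25 libraries lay close together. They were far above all 3 HH18 libraries, a separation that follows from the choice of the interval. The ratio of depth-scaled reads was 116, with a 95% counting interval of 39.5 to 566 that covers counting error only (adjusted p = 6.8e-24). Double-positive cells rose from 0.895 to 12.6 CPM and negative cells from 1.44 to 17.5 CPM at the same interval.

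The next intervals in this group were opened less evenly in the other populations. At chr1:123176166-123176366, HH25 E2-only libraries held 17.4, 16.7 and 17.9 CPM after 1 read in each HH18 library, a ratio of 76 (25.7 to 371). In HH18 double-positive cells the same interval was already at 11.7, 7.4 and 5.79 CPM, and the double-positive rise to 24.4 CPM was smaller by 4.56 on the log2 scale (SE 0.71, adjusted p = 1e-06, edgeR test of the difference). Negative cells rose there from 1.2 to 17.7 CPM, and their test of the difference was not passed (2.31, SE 1.04, adjusted p = 0.11). At chr17:1802951-1803151, E2-only cells went from 1 read per library to 12.8, 18.9 and 15.6 CPM, a ratio of 69.6 (23.5 to 340). Negative cells held 3.66 ± 1.23 CPM at HH18 and 5.86 ± 1.09 CPM at HH25 there (SD, n = 3), and did not pass the test (adjusted p = 0.24). Double-positive cells rose from 2.23 to 11.5 CPM at this interval, a smaller change by the test of the difference (3.60, SE 0.90, adjusted p = 0.0021).

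The remaining 3 opened intervals, chr3:100014968-100015168, chr2:132921788-132921988 and chr3:4612551-4612751, had ratios of 72.3, 71.1 and 68.4. The last of them was near the lowest level in all 3 HH18 populations, at 0.27, 0.352 and 0.621 CPM in E2-only, double-positive and negative cells. It rose in all 3, to 15.5, 10.5 and 8.98 CPM. The test of the difference was not passed against either population (adjusted p = 0.32 and 0.62).

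The interval that closed to the lowest count from the highest level was chr4:2673858-2674058. Its HH18 E2-only libraries held 17.1, 21.6 and 23.3 CPM and each HH25 library held 1 read. All HH18 libraries were thus far above all HH25 libraries, with a ratio of 95.7 (32.4 to 467, adjusted p = 1.4e-20). This separation follows from the choice of the interval. In HH18 double-positive cells the interval was at 1.88 ± 1.87 CPM and in HH18 negative cells at 4.21 ± 1.31 CPM (SD, n = 3). The HH18 level was higher in E2-only cells than in either, but the interval was chosen for its high HH18 E2-only level. The E2-only change minus that of negative cells was -4.18 on the log2 scale (SE 1.01, adjusted p = 0.0016).

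A second closed interval was shared with double-positive cells. At chr1:125948941-125949141 the HH18 libraries held 18, 13.4 and 18.5 CPM in E2-only and 22.1, 15.5 and 15.2 CPM in double-positive cells. At HH25 each E2-only library held 1 read, and double-positive libraries held 0.509 to 0.748 CPM. The 2 populations overlapped at HH18, and the test of the difference between their stage changes was not passed (-1.42, SE 1.13, adjusted p = 0.41). By contrast chr1:120330788-120330988 fell from 14.9, 19.4 and 11.2 CPM to 1 read per library in E2-only cells, while HH18 double-positive cells held 0.977 to 1.85 CPM. Negative cells also fell there, from 3.53 to 0.758 CPM, a smaller change by the test of the difference (-3.53, SE 1.07, adjusted p = 0.013).

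The largest loss in level was at chr1:153949737-153949937. Its HH18 E2-only libraries held 529, 729 and 763 CPM, and its HH25 E2-only libraries 20.1, 22.3 and 15.4 CPM. All 3 HH18 libraries were far above all 3 HH25 libraries, and the log2 change was -5.12 (SE 0.15, adjusted p = 7.8e-50). Lack of overlap between the stages was a condition of choice for the named losses and gains. HH18 double-positive libraries were as high, at 581, 745 and 680 CPM, and fell to 46.1 ± 9.83 CPM (SD, n = 3). HH18 negative libraries held 19.9, 30.8 and 26.5 CPM, so that the interval was high in both reporter-positive populations of HH18 and in no other group.

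The next losses followed the same arrangement over the groups. The interval chr8:27835367-27835567 held 159, 206 and 253 CPM in HH18 E2-only libraries and 3.31, 1.99 and 4.24 CPM in HH25 E2-only libraries (log2 change -6.02, SE 0.24, adjusted p = 4.6e-40). HH18 double-positive libraries held 171, 276 and 268 CPM and HH18 negative libraries 6.11 to 10.9 CPM. An interval on an unplaced sequence assigned to chromosome 8 had nearly the same values, with 171, 218 and 245 CPM falling to 4.97, 3.18 and 3.57 CPM. Whether the 2 sequences are copies between which reads were divided was not tested. The electroporated constructs carry enhancer sequences of the genome, and whether construct reads were counted in any of these intervals was not tested either.

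The other large losses differed in where else they were accessible. At chr5:40936058-40936258 the HH18 level was 145, 129 and 162 CPM in E2-only libraries and 14.3, 14.3 and 15 CPM at HH25 (log2 change -3.33, SE 0.18, adjusted p = 1.8e-30). Here HH18 double-positive cells held only 41.7 ± 5.31 CPM and HH18 negative cells 33.6 ± 0.979 CPM (SD, n = 3), below all HH18 E2-only libraries. At chr3:32986936-32987136 the level fell in all 3 populations, from 140 to 11.8 CPM in E2-only, 144 to 15.2 CPM in double-positive and 76.8 to 6.45 CPM in negative cells. At chr5:49353470-49353670 E2-only cells fell from 182 to 22.1 CPM, and double-positive cells from 178 to 66.5 CPM, a smaller change by the test of the difference (-1.60, SE 0.23, adjusted p = 1.9e-07). Negative cells fell there from 41.5 to 7.11 CPM, and their test of the difference was not passed (-0.60, SE 0.29, adjusted p = 0.14).

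The 6 largest gains in level were all on sequences outside the assembled chromosomes. The largest went from 67.3, 93.5 and 69.1 CPM to 251, 117 and 138 CPM, so that HH25 E2-only replicate 1 stood above the other HH25 libraries. Its log2 change was 1.16 (SE 0.18, adjusted p = 1.7e-08), and it did not pass the test against a 2-fold change (adjusted p = 0.17). The steepest of the 6 went from 13.8, 8.62 and 17.6 CPM to 57.5, 70.9 and 76.5 CPM, a log2 change of 2.29 (SE 0.19, adjusted p = 6.2e-19), beside 2.40 in double-positive and 2.19 in negative cells. The tests of the difference were not passed (adjusted p = 0.84 and 0.85).

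In 4 of these gains, picked out after their values were seen, libraries of HH25 double-positive and of HH18 negative cells stood apart in the same way. One of them held 28.3, 33.2 and 31 CPM at HH18 and 86.9, 93.9 and 120 CPM at HH25 in E2-only cells. In HH25 double-positive cells it held 174, 137 and 45.8 CPM, with replicate 3 low, and in HH18 negative cells 51.3, 39.7 and 126 CPM, with replicate 3 high. The share of reads on chromosome W, the female-specific chromosome of birds, was 0.0758%, 0.0767% and 0.0572% in those double-positive libraries and 0.0575%, 0.0461% and 0.0709% in those negative libraries. In HH18 double-positive libraries, with W shares of 0.0446%, 0.0481% and 0.0643%, the interval held 26.7, 52.9 and 48.1 CPM. In HH25 negative libraries, with W shares of 0.0594%, 0.0629% and 0.0704%, it held 92.8, 65 and 88.2 CPM. In E2-only libraries the W share was 0.0584%, 0.0392% and 0.0603% at HH18 and 0.0555%, 0.0571% and 0.0578% at HH25, and the stages overlapped. The part of embryo sex in these gains was not tested.

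The intervals with the highest level and no called change give the other end of the scale. At chr1:14555481-14555681 E2-only libraries held 108, 106 and 102 CPM at HH18 and 106, 107 and 110 CPM at HH25, and the stages overlapped (log2 change 0.03, SE 0.13, adjusted p = 0.85). The other 3 such intervals, chr1:93976925-93977125, chr4:86717527-86717727 and chr2:46177115-46177315, had E2-only means of 100 to 110 CPM at both stages and log2 changes of -0.09, 0.00 and 0.10. With library totals alone as the scaling, 3 of these 4 intervals passed the test as higher, at 0.33 to 0.42, close to the 0.32 by which that scaling moved the median interval. The interval chr2:46177115-46177315 also passed as higher in edgeR with loess scaling (0.27, adjusted p = 0.037). With 1 subtracted from every count it passed as well (0.31, adjusted p = 0.049).

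**Figure D3:**
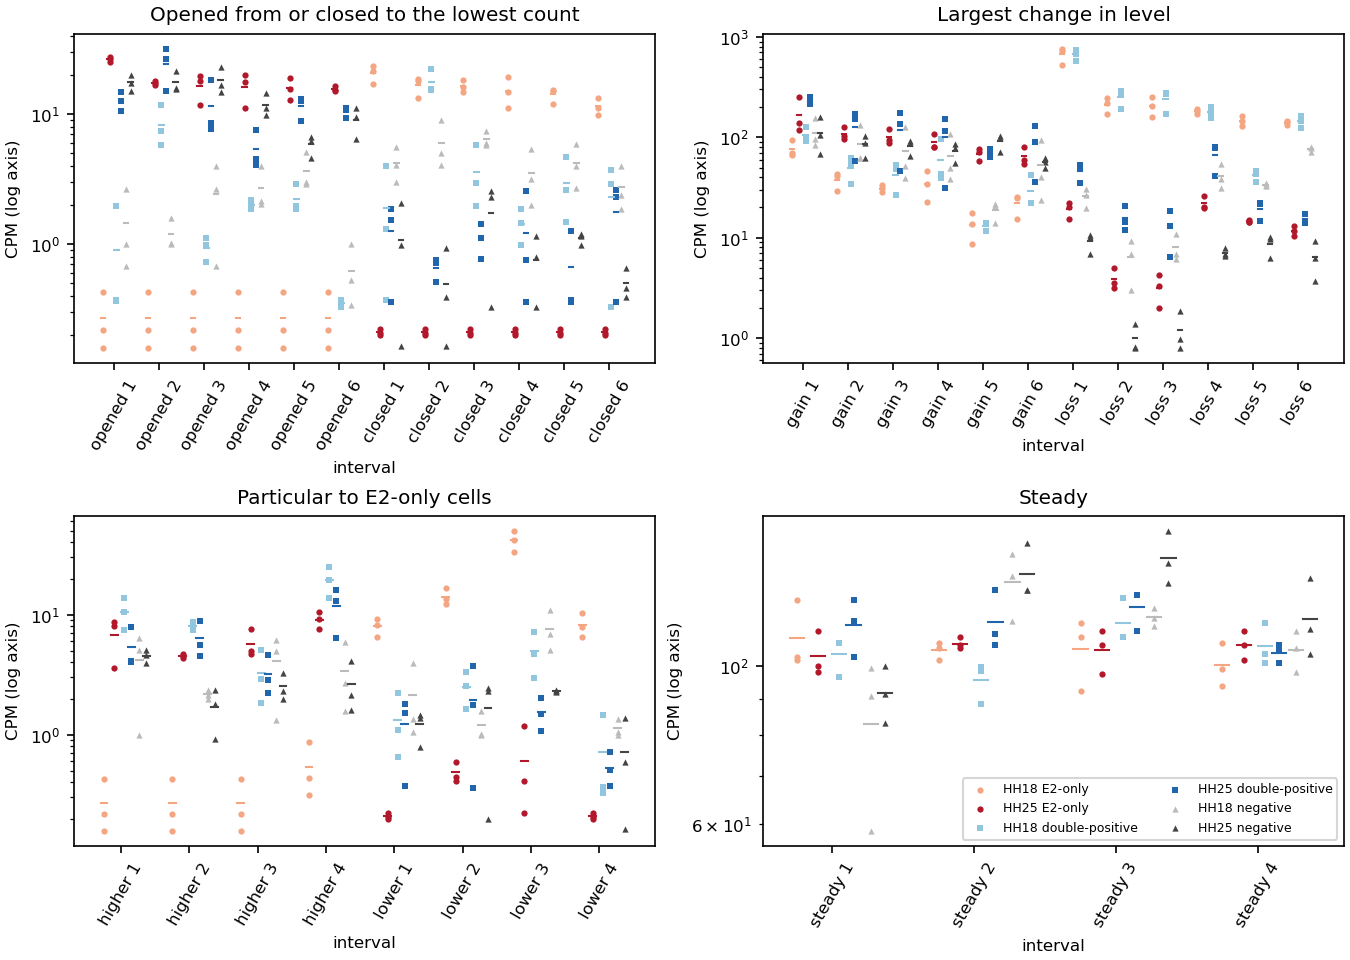
CPM on a log axis in each library of the 6 groups (points) with the group mean (short lines) for intervals opened from or closed to the lowest count, those with the largest change in level, those whose change was particular to E2-only cells, and steady intervals. In the largest loss (loss 1) HH18 E2-only and HH18 double-positive libraries lie between 529 and 763 CPM and all other groups at or below 52.7 CPM.

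The stage changes of the 3 populations went in related directions. The E2-only change and the double-positive change, which share no library, had the same sign at 71.9% of tested intervals (Pearson's r = 0.64 across intervals). Against the change in negative cells the figures were 70.9% and 0.66. These values are descriptions across intervals, which share library composition and scaling.

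Of the 36939 intervals that rose in E2-only cells, 16147 (43.7%) also rose in double-positive and 12911 (35%) in negative cells. These were 73.7% of the intervals that rose in double-positive and 79.6% of those that rose in negative cells. All 3 populations rose at 7467 intervals, where the median E2-only level went from 1.15 to 8.56 CPM, the double-positive from 1.43 to 6.6 CPM and the negative from 2.02 to 7.88 CPM. At 12970 intervals (35.1%) neither other population was called in either direction. Of these 12970, 1571 passed the tests of the difference against both.

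Of the 39175 lower intervals, 14152 (36.1%) also fell in double-positive and 11241 (28.7%) in negative cells, which were 57.5% and 71% of the intervals that fell there. All 3 populations fell at 6290 intervals, and neither other population was called in either direction at 19625 (50.1%), of which 3228 passed both tests of the difference.

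Opposite calls were unevenly divided. At 2096 intervals E2-only cells rose while double-positive cells fell, 5.67% of the E2-only rises. Over all tested intervals double-positive cells fell at 18.4% and rose at 16.3%. Their median level went from 2.18 to 6.14 CPM in E2-only and from 21.5 to 10.1 CPM in double-positive cells, so that the populations were closer at HH25. The reverse, an E2-only fall with a double-positive rise, was found at 280 intervals (0.715% of the falls), with medians of 11.6 to 4.89 CPM and 2.63 to 7.1 CPM. Both sets were chosen by opposite calls on the same counts, so their medians are descriptions only.

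The difference between stage changes was tested directly. Against negative cells, the E2-only change was more positive at 11518 intervals (8.59% of those tested) and more negative at 12816 (9.56%). Against double-positive cells, it was more positive at 12287 (9.17%) and more negative at 11940 (8.91%). With library totals alone the division against negative cells was 17886 and 7611, so that 70.1% and not 47.3% of these calls were positive, and against double-positive cells it was 14554 and 9678, 60.1% and not 50.7%. Leaving out 1 library at a time gave 7362 to 11534 more negative intervals against negative cells, each time fewer than in the main fit. Against double-positive cells it gave 7964 to 10681, also fewer each time. More intervals were tested in those fits. The lowest numbers against negative cells were 7362 without HH18 negative replicate 1 and 8256 without HH18 negative replicate 3. Subtracting 1 from every count left 8478 more negative intervals against negative and 7945 against double-positive cells. Thinning of the libraries to the smallest total left 2929 and 1795 calls against negative cells. Far fewer intervals were tested there than in the main fit, so the drop is not one among the same intervals.

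A stage change was counted as particular to E2-only cells where it was called and exceeded that of both other populations in the same direction by these tests. That held for 2919 rising (2.18%) and 5408 falling intervals (4.04%), so that 35.1% of them were rising. With library totals alone the numbers were 4803 and 3491, and 57.9% were rising, so which direction was more frequent depended on the scaling. Leaving out each of the 18 libraries in turn gave 3318 to 5450 falling intervals, most of these numbers being below that of the main fit. More intervals were tested in those fits. The lowest numbers were 3318 without HH25 double-positive replicate 3, 3423 without HH18 negative replicate 1 and 3586 without HH18 E2-only replicate 3. Subtracting 1 from every count gave 3008 rising and 3044 falling intervals, so that 49.7% were rising. After thinning 584 rising and 576 falling intervals were left, among far fewer tested intervals.

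At these particular intervals the median levels of the 3 populations lay further apart at HH18 than at HH25. The falling intervals had a median level of 21.1 CPM in HH18 E2-only cells against 4.89 CPM in double-positive and 5.52 CPM in negative cells of HH18. At HH25 the 3 medians were 2.89, 3.41 and 3.22 CPM. The rising intervals had HH18 medians of 1.45 CPM in E2-only, 7.09 CPM in double-positive and 5.02 CPM in negative cells, and HH25 medians of 8.05, 7.61 and 5.44 CPM. These medians are descriptions of intervals chosen by the same counts.

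Of the 4 falls named as particular, chr3:69126962-69127162 had the highest HH18 level. Its E2-only libraries held 41.8, 33.6 and 49.5 CPM at HH18 and 0.414, 1.19 and 0.223 CPM at HH25. The ratio of depth-scaled reads was 68.5 (35.8 to 151). Lack of overlap between the stages was a condition of choice for all intervals named as particular. Double-positive cells held 4.94 ± 2.11 and 1.53 ± 0.483 CPM and negative cells 7.64 ± 2.99 and 2.33 ± 0.0411 CPM at the 2 stages (SD, n = 3). The E2-only change minus that of negative cells was -4.47 (SE 0.67, adjusted p = 7.1e-07), and minus that of double-positive cells -4.37 (SE 0.85, adjusted p = 8.6e-05). After thinning the difference from negative cells was -2.75 (SE 1.04) and no longer passed (adjusted p = 0.078).

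At chr9:17819246-17819446 the E2-only libraries held 12.3, 13.4 and 16.7 CPM at HH18 and 0.414 to 0.597 CPM at HH25. Neither other population passed the test there, with 2.5 ± 0.851 and 1.96 ± 1.7 CPM in double-positive and 1.2 ± 0.34 and 1.66 ± 1.26 CPM in negative cells (SD, n = 3; adjusted p = 0.69 and 0.75, edgeR). The other 2 named falls, chr3:337287-337487 and chrZ:24183626-24183826, ended at 1 read in each HH25 E2-only library, from 6.49 to 9.24 CPM and from 6.47 to 10.4 CPM at HH18. At the Z interval the difference from double-positive cells was -4.80, and with 1 subtracted from every count it was larger with a wider error and did not pass (-7.35, SE 3.01, adjusted p = 0.083). Its difference from negative cells was -4.36, and -3.55 without HH25 negative replicate 3 (SE 1.39, adjusted p = 0.065).

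Among the particular rises, chr8:22619751-22619951 had the highest HH25 level of the 4 named. It held 2 reads in each HH18 E2-only library, and 10.6, 7.56 and 9.15 CPM at HH25, a ratio of 19.9 (8.91 to 55.3). HH18 double-positive libraries were at 24.8, 19.6 and 13.7 CPM, above the HH25 E2-only libraries, and HH25 double-positive libraries at 6.36, 16.1 and 13 CPM. The E2-only change minus that of negative cells was 4.21, and 3.61 after thinning (SE 1.26, adjusted p = 0.054). At chr4:46453125-46453325 E2-only cells went from 1 read per library to 8.07, 8.76 and 3.57 CPM, while double-positive cells went from 10.5 ± 3.14 to 5.35 ± 2.18 CPM (SD, n = 3). The difference of the 2 changes was 5.75 (SE 0.75, adjusted p = 1.1e-08). The remaining 2, chr21:390009-390209 and chr3:39187303-39187503, rose from 1 read per library to 4.38 to 4.69 CPM and to 4.69 to 7.56 CPM.

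**Figure D4:**
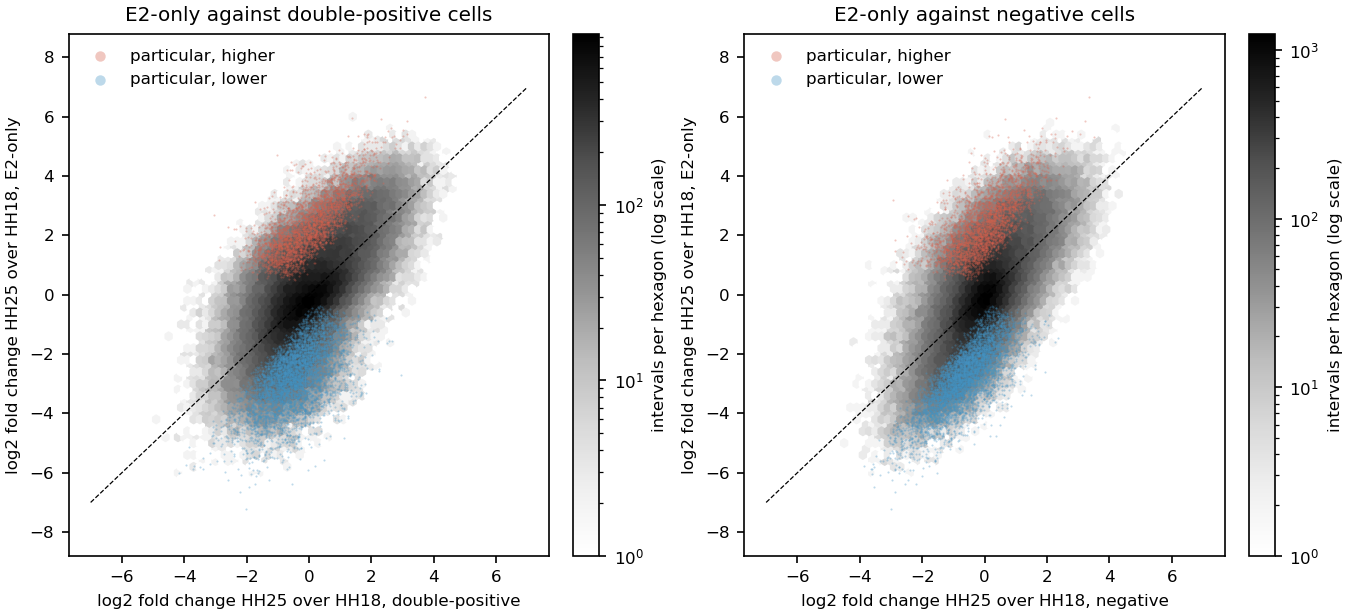
Log2 stage change in E2-only cells (vertical) against that in double-positive (left) and negative cells (right), with grey shade giving the number of tested intervals per hexagon on a log scale and the dashed line marking equal changes. The 2919 particular rises (red) and 5408 particular falls (blue) are chosen for lying off the line; the whole cloud follows it with Pearson's r of 0.64 and 0.66.

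Neighbouring intervals tended to be called alike. Within 5000 bp, the next interval was also higher after 34.3% of the higher intervals, compared with 27% over all 62597 neighbouring pairs. After a lower interval the next was lower in 37% of pairs, compared with 30.3% overall. The opposite call followed a higher interval in 25.8% of pairs and a lower interval in 22.8%. Between 20000 and 100000 bp apart the share alike among higher intervals was 27.9%, against 25.9% overall. Pearson's r of the log2 changes of neighbours was 0.12 within 5000 bp and 0.04 at 20000 to 100000 bp.

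Runs of calls in 1 direction were mostly short. When consecutive tested intervals no more than 20000 bp apart and called in 1 direction were joined, the higher intervals formed 26004 runs, of which 18701 held 1 interval, and the lower formed 26445, of which 18368 held 1. Runs of 5 or more numbered 294 among the higher and 426 among the lower intervals. They held 4.75% of the higher and 6.4% of the lower intervals.

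The longest falling runs held 12 intervals, and 3 of these are given. Each was chosen because all its intervals were called lower in E2-only cells. The separation of the E2-only stages follows from that choice, and the values beside other populations are descriptions only. The first, chr2:32649998-32671293, had a summed level of 282, 269 and 263 CPM in HH18 E2-only libraries and 68.1, 88.6 and 77.4 CPM at HH25. The stages did not overlap, and the median log2 change of its intervals was -2.26, beside -0.94 in double-positive and -0.85 in negative cells. The largest fall within it, at chr2:32655648-32655848, went from 22, 19.8 and 21.6 CPM to 1.03, 1.99 and 2.68 CPM (log2 change -3.48, SE 0.32, adjusted p = 1.4e-16).

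The second, chr33:1079717-1108855, went from 162, 175 and 179 CPM to 25.3, 38 and 36.8 CPM. Double-positive cells were also lower at 6 of its 12 intervals, and negative cells at 6. Over all tested intervals double-positive cells were lower at 18.4% and negative cells at 11.8%. The third, chr4:45263420-45311780, went from 269, 249 and 278 CPM to 67.9, 46.2 and 45.7 CPM in E2-only cells, with HH18 levels of 110 ± 12.5 CPM in double-positive and 82.5 ± 12.4 CPM in negative cells (SD, n = 3). Its HH18 E2-only libraries were all above those of both other populations. The steepest interval, chr4:45294706-45294906, went from 30.2, 22 and 36.1 CPM to 1.03, 1.19 and 0.893 CPM (log2 change -4.81, SE 0.35, adjusted p = 4.5e-22).

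The 3 longest rising runs, of 33, 19 and 17 intervals, lay side by side on chromosome Z between 27142852 and 27396671. Of 82 tested intervals in that span, 73 were higher at HH25 and none was lower, while 23.4% of the 7507 other Z intervals were higher and 38% lower. The span was chosen for its run of calls. The longest run, chrZ:27307563-27396671, had a summed level of 100, 80.2 and 102 CPM in HH18 E2-only libraries and 285, 306 and 324 CPM in HH25 E2-only libraries. The stages did not overlap.

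The rise in the Z span was not particular to E2-only cells. The median log2 change over its 82 intervals was 1.41 in E2-only, 1.57 in double-positive and 1.29 in negative cells. Of these intervals, 80.5% were also higher in double-positive and 74.4% in negative cells. Elsewhere on Z the shares higher were 10.6% in double-positive and 9.64% in negative cells. In HH25 double-positive libraries the longest run summed to 466, 542 and 89.6 CPM, with replicate 3 at the level of HH18. The W shares of reads in those libraries were 0.0758%, 0.0767% and 0.0572%. In HH25 negative libraries the sums were 268, 320 and 454 CPM with W shares of 0.0594%, 0.0629% and 0.0704%. The E2-only W shares of the 2 stages overlapped, as given above, and the part of embryo sex in the rise was not tested.

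The calls were spread over all chromosomes with some differences between classes. On chromosomes 1 to 5, 27.3% of 71392 intervals were higher and 31% lower, and on chromosomes 11 to 33, 26.7% of 26848 were higher and 26% lower. Among the 29 chromosomes with at least 100 tested intervals, the share higher ranged from 21.4% on chromosome 33 to 29.6% on chromosome 28. The share lower ranged from 15.6% on chromosome 25 to 37.6% on Z.

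Sequences outside the assembled chromosomes had mostly higher and chromosome Z mostly lower calls. Of 7749 intervals on such sequences 41.2% were higher and 13.7% lower, with a median change of 0.68. In double-positive cells 48.1% of them were higher and in negative cells 6.85%. On Z, 24.1% of 7589 intervals were higher and 37.6% lower, with a median change of -0.30, beside -0.36 in double-positive and -0.23 in negative cells. When tested against a 2-fold change, 15.3% of the intervals outside assembled chromosomes and 15.7% of those on chromosomes 1 to 5 were higher.

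The shares of reads moved in step. Chromosome Z held 6.36% ± 0.146 of the reads at HH18 and 5.39% ± 0.0956 at HH25 in E2-only libraries (SD, n = 3). The unassembled sequences held 3.9% ± 0.244 and 5.99% ± 0.46. Neither pair overlapped, and each gave an exact permutation p of 0.1, the smallest possible. Chromosome W held 0.0526% ± 0.0116 and 0.0568% ± 0.00116, and those values overlapped (exact permutation p = 1).

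**Figure D5:**
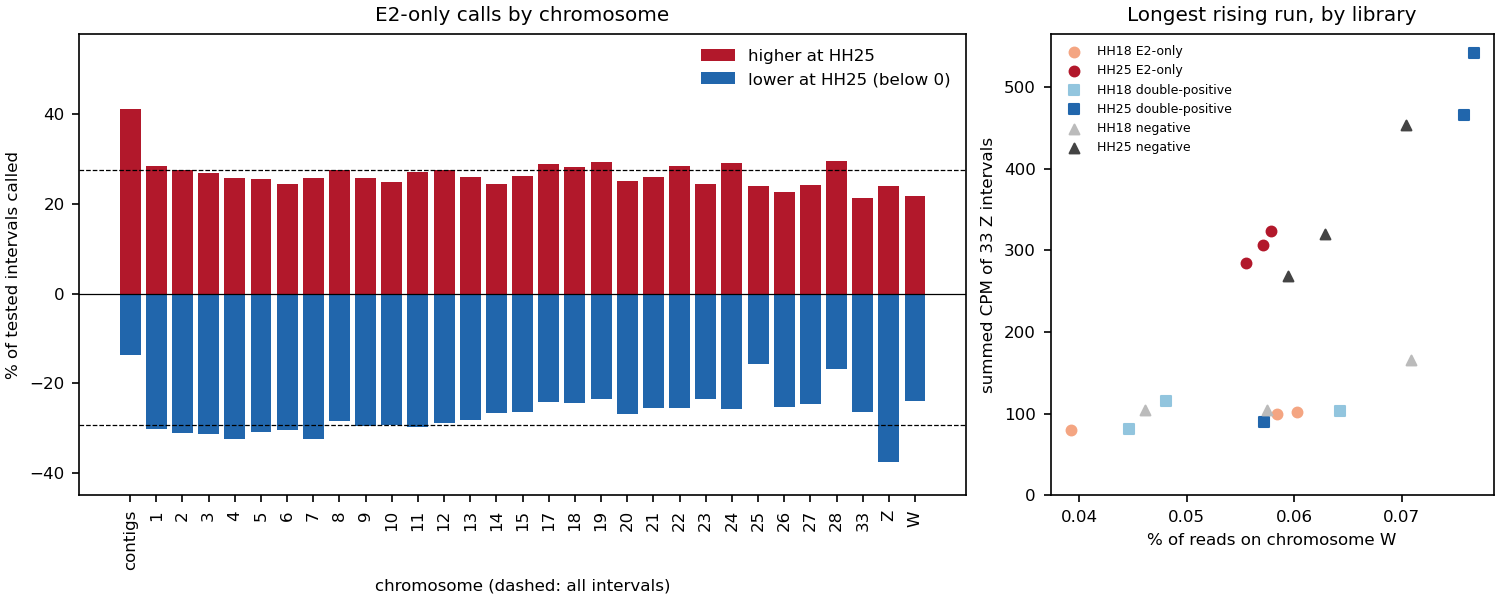
Left, the share of tested intervals called higher (above 0) and lower (below 0) at HH25 in E2-only cells on each chromosome with at least 90 tested intervals and on sequences outside assembled chromosomes (contigs), with dashed lines at 27.6% and 29.2% for all intervals. Right, the summed CPM of the 33 intervals of the longest rising Z run against the share of reads on chromosome W in each of 18 libraries; the HH25 E2-only libraries lie at 285 to 324 CPM and the HH18 E2-only libraries at 80.2 to 102 CPM.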

How the data were processed

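The authors deposited raw counts, whole numbers of reads per interval. Bowtie 1.0.0, MACS2, HOMER 4.7 and the build galGal5 are named per the submitters' processing notes, without their roles. The choice of intervals, the handling of duplicate and mitochondrial reads, any shift of read ends to the transposase cut, and whether coordinates start at 0 or 1 are not stated in the sources used here. Per the labels' protocols, tagmentation lasted 20 min, amplification 11 cycles, and 40 bp paired-end reads were sequenced from 3 biological replicates per stage. Interval width is 200 bp, except for 1 interval of 394 bp, and 4 starts on unassembled sequences are below 0.

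Column names gave the sample of each column. Another 9 columns name a stage that no label has and were left out, so the 9 HH10 samples are not analysed here. Counts of 18 libraries were fitted together in R 4.3.3 with edgeR 4.0.16 (filterByExpr, TMM, 1 mean per group, quasi-likelihood test, Benjamini-Hochberg adjusted p below 0.05 over 134020 intervals). Standard errors come from the fold change and its F statistic. This test gave each adjusted p of an interval unless an alternative is named. It was also run on simulated counts in which few intervals changed and all had the same spread. That setting differs from these data, so the run does not measure error rates here. Differences between stage changes are interaction contrasts. Levels are CPM of TMM-scaled totals. Ratios for intervals at or near the lowest count are of summed depth-scaled reads with 95% counting intervals. Amplified reads are not independent molecules, so these cover counting error only. A floor of 3 counts is 0.475 to 1.29 CPM in E2-only libraries and 2.98 CPM in the shallowest library. P values measure the spread between libraries.

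Intervals were named by rule. Among those opened from, and closed to, the lowest count, the 6 with the highest level were taken. The 6 gains and 6 losses had the largest CPM difference and no overlap. From the changes particular to E2-only cells without overlap of the stages, the 4 rises and 4 falls with the largest smaller interaction were taken. The others were the 4 highest steady intervals (absolute log2 below 0.25, adjusted p above 0.5) and the 3 longest runs per direction with their strongest member. This gave 42 intervals. The comparison, lists and rules were chosen with earlier results of these data known. With no galGal5 annotation, planned marker and promoter counts were not made and no sequence is shown. Replicate numbers were not used to pair libraries in the main fit. Across stages, same-number correlations of deviations were -0.0128, 0.00075 and 0.00567 in E2-only cells. Within HH25 the same-number correlations of E2-only with negative libraries were 0.111, 0.0683 and 0.0243, not all above 0.1. Those of their different-number pairs ran from -0.0879 to 0.0195. Same-number pairs of all other groups were at most 0.0436. Whether HH25 libraries of 1 number share embryos was not tested. Alternatives were other scalings (library totals, median-of-ratios, loess), no filter, a threshold of 0.01, thinning, counts minus 1, DESeq2 1.42.0, a test against a 2-fold change, the 6 E2-only libraries alone, replicate blocks, each library left out, and, chosen after seeing the data, an earlier quasi-likelihood method and chromosomes 1 to 33 alone.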

Additional observations from a re-analysis of the deposited data

Results flagged for a closer look

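These results differ between populations by the test of the difference itself, the interaction of stage and population in edgeR at an adjusted p below 0.05. Against negative cells the E2-only stage change was more positive at 11518 and more negative at 12816 intervals, and against double-positive cells at 12287 and 11940. Among the named intervals the values below are the E2-only log2 stage change minus that of the other population, and each passed its test. Values of intervals at the lowest count of 1 rest on that count and on the prior count of the fit, and are not bounds.

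For the opened intervals the difference against negative cells was 3.31 at chr3:84030966-84031166, 2.88 at chr3:100014968-100015168, 3.66 at chr2:132921788-132921988 and 5.28 at chr17:1802951-1803151. Against double-positive cells it was 2.95 at the first, 4.58 at the third and 3.60 at the fourth of these, and 4.56 at chr1:123176166-123176366.

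For the closed intervals the differences against negative and double-positive cells were -4.18 and -5.85 at chr4:2673858-2674058, -3.53 and -5.89 at chr1:120330788-120330988, and -3.88 and -3.91 at chr9:22633995-22634195. At the 2 closed intervals on unassembled sequences they were -4.10 and -4.40, and -3.40 and -5.22.

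Of the 6 gains in level, 5 exceeded the change in negative cells, by 1.19, 1.62, 1.61, 1.37 and 1.61. In these 5 the mean level in negative cells was 52.7 to 111 CPM at HH18. At each of them HH18 negative replicate 3 stood above the other libraries of its group, with 40.1, 23.8 and 94.3 CPM at the lowest mean. The part of that library in these differences was not tested. For the losses the differences against negative and double-positive cells were -3.73 and -1.27 at chr1:153949737-153949937, -2.89 and -1.79 at the unplaced chromosome 8 sequence, -3.26 and -1.85 at chr8:27835367-27835567, and -1.39 and -2.24 at chr5:40936058-40936258. At chr5:49353470-49353670 the difference against double-positive cells was -1.60.

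The intervals chosen as particular to E2-only cells pass both tests by that choice. The rises differed from negative and double-positive cells by 4.86 and 5.75 at chr4:46453125-46453325, 4.47 and 4.49 at chr21:390009-390209, 4.98 and 4.43 at chr3:39187303-39187503, and 4.21 and 4.92 at chr8:22619751-22619951. The falls differed by -4.67 and -5.00 at chr3:337287-337487, -5.13 and -4.41 at chr9:17819246-17819446, -4.47 and -4.37 at chr3:69126962-69127162, and -4.36 and -4.80 at chrZ:24183626-24183826. In the falling runs, the strongest interval differed by -2.0 and -1.58 on chromosome 2, and from negative cells by -1.60 on chromosome 33 and -1.93 on chromosome 4.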

How the results depend on the processing

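The E2-only stage calls (36939 higher, 39175 lower) kept within 1.5 times under each alternative but the test against a 2-fold change (19982 and 20692). They were 32251 and 35277 with DESeq2, and 41905 and 32200 with counts minus 1. On chromosomes 1 to 33 alone, with fewer intervals tested, they were 35666 and 32010, so that 52.7% were higher. In the main fit the share higher among calls was 46.8% on chromosomes 1 to 5, 46.1% on 6 to 10 and 50.6% on 11 to 33. Leaving out each E2-only library gave 35877 to 39094 higher and 32298 to 34868 lower, with the median of all intervals at 0.11 to 0.14; counts minus 1 moved that median to 0.21. For the interaction with negative cells, higher and lower calls were 6042 and 6437 at an adjusted p below 0.01, 17886 and 7611 with library totals, and 2929 and 1795 thinned; lower calls were 8478 with counts minus 1. Leaving out each library gave 9952 to 12568 and 7362 to 11534. For the interaction with double-positive cells they were 6820 and 5916 at 0.01, and 7945 lower with counts minus 1; leaving out each library gave 10520 to 12467 and 7964 to 10681. The particular changes were 4803 and 3491 with library totals, 995 and 2236 at 0.01, 584 and 576 thinned, and 3044 lower with counts minus 1; leaving out each library gave 2307 to 3356 and 3318 to 5450. Thinning and the stricter threshold leave fewer reads or calls by construction, and for the others the cause was not tested. After thinning, far fewer intervals than in the main fit were tested against negative cells and for the particular changes. With the replicate number as a block, calls were 36863 and 39031 for the stage change, 11750 and 12999 against negative, 12297 and 12025 against double-positive cells, and 2939 and 5468 particular. With a replicate block within stage the interactions gave 11826 and 12892, 12233 and 12082, and 2946 and 5481. Of 1132 repeats over the named intervals, 1121 kept their side of the threshold. The intervals were chosen by their values in the same counts. Direction was not always kept: a steady interval at -0.09 in the main fit ran from -0.11 to 0.24 over its repeats. The steady interval chr4:86717527-86717727 turned from 0.00 to 0.33 with library totals (adjusted p = 0.012). Thinning ended the difference from negative cells at chr8:22619751-22619951 (adjusted p = 0.054) and chr3:69126962-69127162 (0.078), and from double-positive cells at chrZ:24183626-24183826 (0.063). The share higher outside assembled chromosomes ran from 15.3% with the 2-fold test to 53.5% with library totals. Low counts limit what 1 interval can show: in the shallowest library 3 reads are 2.98 CPM.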

Other observations

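In windows of 1 Mb with at least 20 tested intervals, 1020 in number, the median share of intervals higher at HH25 in E2-only cells was 26.4% and the 95th percentile 38%. The window with the largest share was chr2 from 52 to 53 Mb, where 27 of 43 intervals (62.8%) were higher and 5 lower. Its median log2 change was 1.89 in E2-only, 0.99 in double-positive and 0.50 in negative cells. The second held the Z runs described above, and the third, Z from 80 to 81 Mb, had 12 of 21 higher with medians of 1.26, 0.58 and 0.02.

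For lower intervals the median share was 30.5% and the 95th percentile 42.9%. The first Mb of chromosome 27 had the largest share, with 32 of 58 intervals (55.2%) lower and 3 higher, and medians of -1.08, -0.21 and -0.68 in E2-only, double-positive and negative cells. On chromosome 1 from 157 to 158 Mb, 28 of 51 were lower (54.9%), and on Z from 15 to 16 Mb, 67 of 123 (54.5%). These windows were chosen for their shares, and no test was made on them.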
